A study of Mus musculus with 7 samples.

Results

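The 7 sirtuin genes (Sirt1 to Sirt7) and 3 genes of NAD metabolism (Nampt, Nmnat1 and Cd38) were followed in splenic Tregs of aged and young mice. They were taken by their symbols in the deposited series table. All 10 were found once, among the 47729 genes of the count files (25469 with a read in at least 1 library), and all 10 passed the filter on low counts that left 13904 genes for testing. The libraries came from CD4+CD25+ splenocytes of wild-type mice, isolated with magnetic beads, in 3 biological replicates from 18-month-old mice (aged) and 4 from 8-week-old mice (young). The mice of the study were male C57BL/6, and its methods give a slightly older age for the young mice than the sample labels do. The labels name no surgery or drug for either group. Below, aged and young Tregs stand for the whole CD4+CD25+ isolates, in which transcripts of other cells were also read. How many spleens went into a library is not given in the sources used here, and p-values measure the spread between these libraries. The comparison asks whether the transcripts of this NAD-dependent enzyme family, and of the enzymes that make and use up its cosubstrate, differ with age in Tregs.

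Sirtuins are deacylases that remove acetyl and other acyl groups from lysines. They consume NAD in each reaction and release nicotinamide, so that their activity is tied to the NAD supply of the cell. SIRT1, SIRT6 and SIRT7 are mainly nuclear, SIRT2 is mainly cytosolic, and SIRT3, SIRT4 and SIRT5 are mitochondrial. NAMPT turns nicotinamide into nicotinamide mononucleotide, NMNAT1 turns that into NAD in the nucleus, and CD38, a surface glycohydrolase of many leukocytes, breaks NAD down. In Tregs, SIRT1 is best known for deacetylating the FOXP3 protein. These steps act on proteins and metabolites, and only transcripts were measured here.

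No difference between aged and young Tregs was called in any of the 10 genes. Of all genes tested, 16.7% were called with an adjusted p-value under 0.05 by edgeR's quasi-likelihood test, against 0 of these 10, and 0 of the 10 had an unadjusted p under 0.05 in that test. DESeq2, limma voom and limma-trend also called 0 of the 10. By sign, 5 were higher and 5 were lower in aged Tregs. The aged and young values overlapped in each of the 10 genes, whereas in 29.9% of the genes tested they did not. The median absolute log2 fold change was 0.10 over the 10 genes and 0.27 over all genes tested, and it was 0.22 over the 8400 genes tested that lay within the same range of mean log2 CPM. In RNA of a whole isolate, fewer cells of a type and less RNA per cell cannot be told apart.

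**Figure D1:**
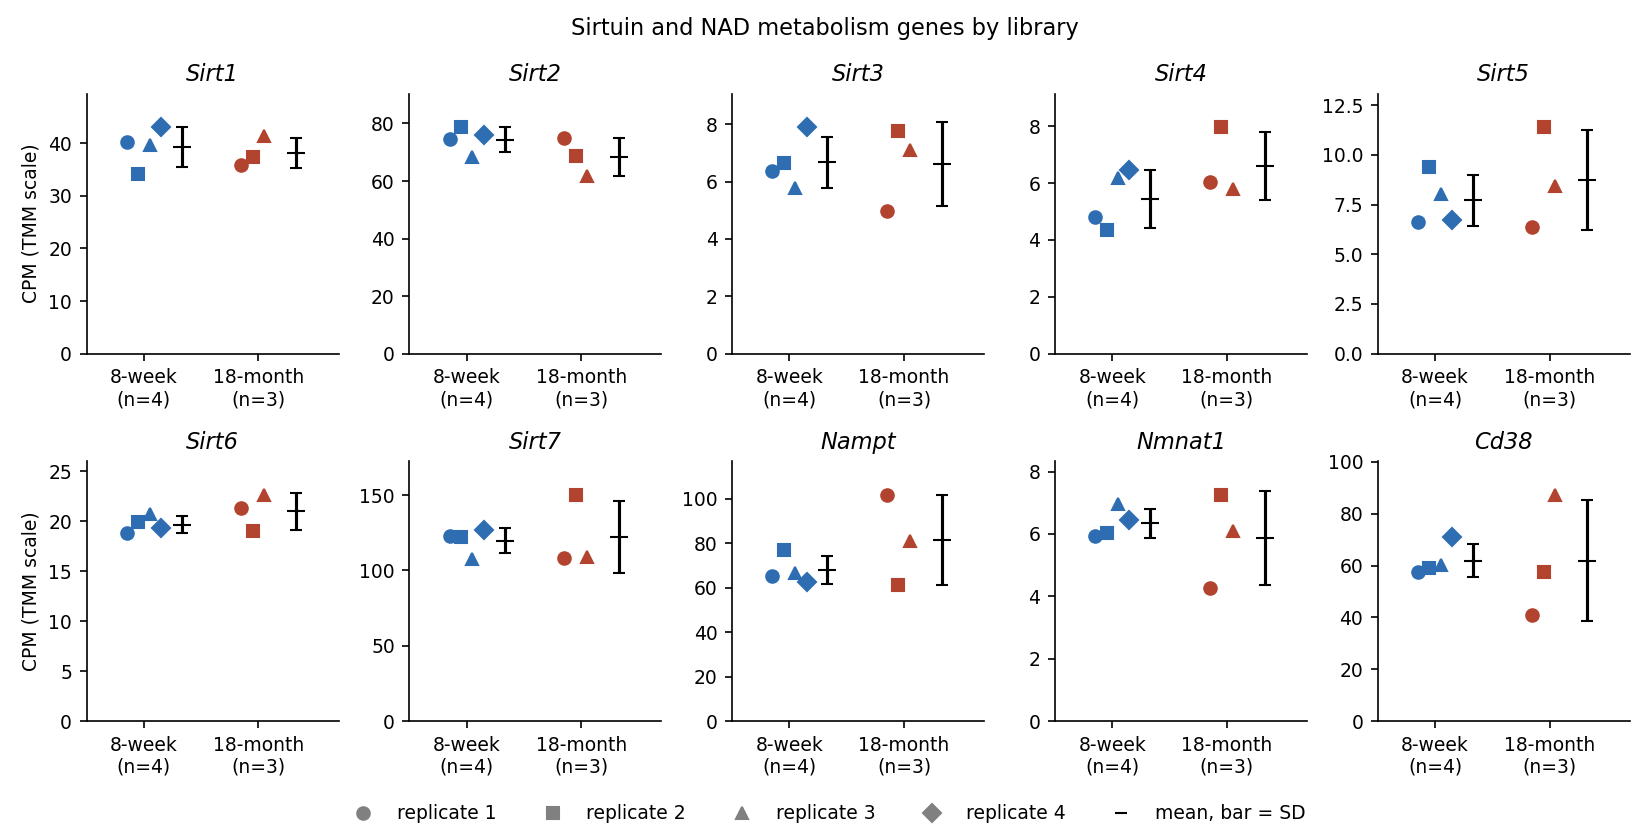
CPM (read counts scaled by the TMM library size, vertical axis from 0) of the 10 genes in each of the 4 young (blue) and 3 aged (red) libraries, with marker shapes for the replicate and a bar for the mean with its SD. In every panel the aged and the young points overlap, and the spread among aged points is widest for Cd38, from 41.0 to 87.2 CPM.

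Reads counted on genes numbered 10734234 to 13649310 per library, and each young library was deeper than each aged one. The T cell genes and the Treg genes Foxp3, Il2ra, Ikzf2 and Ctla4 were read in all 7 libraries, and so were markers of B cells, neutrophils and other cells. Of 8 Treg markers, Gpr83 (log2 fold change -1.71) and Lrrc32 (-1.02) were called lower, 0 were called higher, and 6 had an unadjusted p under 0.05 in either direction. Gpr83 and Lrrc32 were each called in all 7 fits that left out a library, and without young replicate 2 the list had 4 calls, 2 of them higher. Of 8 T cell markers, Cd3e (0.46, adjusted p = 0.0301) was called higher and Cd5 (-0.42, adjusted p = 0.0422) lower, with calls in 2 and 1 of those 7 fits. Each of these shares was 25%, 2 of 8 genes, near the 16.7% called over all genes tested. Haemoglobin genes took 1.27%, 13.1% and 7.6% of the counts in aged replicates 1 to 3 and 1.24% to 10.4% in the young libraries. Aged replicate 1 stood apart, with 10.7% of its gene counts on mitochondrially encoded genes, against 5.08% and 5.53% in the other aged libraries and 2.63% to 3.23% in the young ones.

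Among the nuclear sirtuins, Sirt1 (ENSMUSG00000020063) lies on the minus strand of chromosome 10 from 63319005 to 63381704 in GRCm38 (GENCODE M21). Its enzyme deacetylates FOXP3, p53 and the RELA subunit of NF-kappa B. Aged replicates 1 to 3 had 35.9, 37.4 and 41.4 CPM, and young replicates 1 to 4 had 40.3, 34.1, 39.7 and 43.0 CPM. All 3 aged values lay inside the young range. Aged Tregs averaged 38.2 ± 2.82 CPM (SD, n = 3) and young Tregs 39.3 ± 3.73 CPM (SD, n = 4). The log2 fold change was -0.04 (standard error 0.109, 95% interval -0.29 to 0.21, adjusted p = 0.839).

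The upstream sequence of Sirt1 is shown because Clock and Arntl, the genes of the circadian pair of factors that binds the E-box CACGTG, were called between the ages in opposite directions, calls that most fits without 1 library did not keep, and because this was the only one of the 10 genes with that motif in its window. The window holds the 250 bases before the RefSeq start site, on the minus strand at chr10:63339036-63339285 of GRCm38.p6, written 5′ to 3′ with the motif in capitals. Its last 15 bases lie in an exon of a longer Sirt1 transcript of GENCODE M21. The letters CACGTG read the same on both strands.

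Sirt1: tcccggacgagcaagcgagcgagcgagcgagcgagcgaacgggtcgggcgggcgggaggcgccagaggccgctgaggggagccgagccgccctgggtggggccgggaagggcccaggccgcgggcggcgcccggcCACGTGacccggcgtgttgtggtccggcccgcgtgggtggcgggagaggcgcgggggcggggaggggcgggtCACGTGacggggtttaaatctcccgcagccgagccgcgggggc

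The motif begins at positions -115 and -43 from the start site. It was found in 1 of 13 windows of the 10 genes, and in 6.02% of all 32851 RefSeq windows of this length, with more than 1 copy in 0.429% of them. All 250 bases lay in GENCODE exons, some of neighbouring genes, for Cd38, Sirt7 and both Sirt3 windows. Exon bases numbered 216 for Sirt4, 231 and 101 for Sirt6, and 212 and 204 for Nmnat1. They numbered 156 for Sirt2, 39 for Sirt5 and 0 for Nampt. Sequence further upstream was not searched. The Sirt1 window had a GC content of 79.2%, against a median of 52.4% over all windows. A match describes these letters only and was not tested for binding.

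Sirt6 (ENSMUSG00000034748), on the minus strand of chromosome 10 from 81621785 to 81627797, encodes a deacetylase of histone H3 that acts in DNA repair and in the repression of glycolytic genes. It was at 21.3, 19.0 and 22.6 CPM in aged and at 18.8, 19.9, 20.7 and 19.4 CPM in young replicates. Aged replicates 1 and 3 lay above the young libraries and aged replicate 2 lay among them. Its log2 fold change was 0.09 (standard error 0.110, 95% interval -0.16 to 0.35, adjusted p = 0.602). Across the young libraries it varied least of the 10 genes, with a coefficient of variation of 4.12%.

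Sirt7 (ENSMUSG00000025138), on the minus strand of chromosome 11 from 120618372 to 120625240, encodes the sirtuin of the nucleolus, where ribosomal RNA is made. It had 108.4, 150.1 and 108.9 CPM in aged and 123.0, 121.9, 107.5 and 126.6 CPM in young replicates. Aged replicate 2 was the highest of the 7 libraries and the other aged values lay near the bottom of the young range. The log2 fold change was 0.03 (standard error 0.135, 95% interval -0.27 to 0.34, adjusted p = 0.898), and it was -0.14 without aged replicate 2. Of its merged exon length 3.46% overlaps Mafg or Mir6936, and reads there could not be assigned to 1 gene.

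The cytosolic member Sirt2 (ENSMUSG00000015149), a tubulin and histone deacetylase on the plus strand of chromosome 7 from 28766735 to 28788661, was at 74.8, 68.7 and 61.8 CPM in aged and at 74.5, 78.6, 68.3 and 76.0 CPM in young replicates. Only aged replicate 3 lay below the young range. Its log2 fold change of -0.12 had the narrowest interval of the family (standard error 0.0967, 95% interval -0.34 to 0.10, adjusted p = 0.431).

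The mitochondrial sirtuins were read at far lower counts, between 55 and 134 reads in a library. Sirt3 (ENSMUSG00000025486), the main mitochondrial deacetylase, on the minus strand of chromosome 7 from 140863666 to 140882309, had 4.98, 7.75 and 7.11 CPM in aged and 6.38, 6.66, 5.77 and 7.88 CPM in young replicates. Aged replicate 1 was the lowest library, and the other aged values lay within the young range. The log2 fold change was -0.02 (standard error 0.207, 95% interval -0.49 to 0.46, adjusted p = 0.970). Without aged replicate 1 it was 0.15. In addition, 12.7% of the merged exon length of Sirt3 overlaps Psmd13 or Ric8a on the opposite strand, and the counting did not use strand.

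Sirt4 (ENSMUSG00000029524), on the minus strand of chromosome 5 from 115478010 to 115484725, encodes a lipoamidase and ADP-ribosyltransferase that restrains glutamate and pyruvate dehydrogenase. It was at 6.03, 7.96 and 5.80 CPM in aged and at 4.81, 4.34, 6.16 and 6.45 CPM in young replicates. Aged replicate 2 lay above the young libraries, and aged replicates 1 and 3 lay between the lower and the upper pair of them. Its log2 fold change of 0.28 was the largest of the 10 in size (standard error 0.215, 95% interval -0.22 to 0.77, adjusted p = 0.418). Without aged replicate 2 it was 0.12, smaller than the 0.43 of Nampt in the same fit.

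Sirt5 (ENSMUSG00000054021), on the plus strand of chromosome 13 from 43365496 to 43395203, encodes the enzyme that removes succinyl and malonyl groups. It had 6.38, 11.4 and 8.42 CPM in aged and 6.64, 9.39, 8.06 and 6.74 CPM in young replicates. The aged values ran from below to above the young range. The log2 fold change was 0.18 (standard error 0.231, 95% interval -0.35 to 0.70, adjusted p = 0.644), and it was -0.06 without aged replicate 2.

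Summed over the 7 sirtuins, aged Tregs had 272.1 ± 26.2 CPM (SD, n = 3), and young Tregs had 272.9 ± 12.3 CPM (SD, n = 4). Sirt7 and Sirt2 made up most of this sum in each library. Sirt7 gave 42.1%, 49.7% and 42.5% of it in the aged and 42.0% to 44.8% in the young libraries. Sirt2 gave 22.7% to 29.0% in the aged and 26.6% to 28.6% in the young ones. The mitochondrial members Sirt3, Sirt4 and Sirt5 each gave at most 3.76% in all 7 libraries.

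Of the NAD enzymes, Nampt (ENSMUSG00000020572), on the plus strand of chromosome 12 from 32819545 to 32853349, encodes the rate-limiting enzyme of salvage. Its level was 101.6, 61.3 and 81.1 CPM in aged and 65.3, 76.7, 66.5 and 62.4 CPM in young replicates. Aged replicates 1 and 3 lay above all young libraries, and aged replicate 2 lay below them. Aged Tregs averaged 81.4 ± 20.1 CPM (SD, n = 3), and young Tregs 67.7 ± 6.25 CPM (SD, n = 4). The log2 fold change was 0.27 (standard error 0.163, 95% interval -0.11 to 0.64), with the smallest adjusted p of the 10 genes, 0.298. It depended on single aged libraries, with a log2 fold change of 0.43 without aged replicate 2 (adjusted p = 0.0653) and of 0.07 without aged replicate 1 (adjusted p = 0.750).

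Nmnat1 (ENSMUSG00000028992), on the minus strand of chromosome 4 from 149467572 to 149485202, had 4.28, 7.25 and 6.08 CPM in aged and 5.94, 6.03, 6.95 and 6.45 CPM in young replicates. Aged replicate 1 was the lowest of the 7 libraries and aged replicate 2 the highest. With age the log2 fold change was -0.11 (standard error 0.209, 95% interval -0.59 to 0.36, adjusted p = 0.750). With 49 to 90 reads in a library, it was among the 4 genes of lowest count, together with Sirt3, Sirt4 and Sirt5.

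Cd38 (ENSMUSG00000029084), on the plus strand of chromosome 5 from 43868553 to 43912375, was at 41.0, 57.4 and 87.2 CPM in aged and at 57.5, 58.9, 60.2 and 71.1 CPM in young replicates. The means were almost equal, 61.9 ± 23.4 CPM (SD, n = 3) for aged against 61.9 ± 6.22 CPM (SD, n = 4) for young Tregs, with a log2 fold change of 0.00 (-0.00167 unrounded, standard error 0.224, 95% interval -0.51 to 0.51, adjusted p = 0.997). The aged libraries spread over 2.13-fold and the young ones over 1.24-fold, and this aged spread was the widest of the 10 genes. Leaving out aged replicate 1 gave a log2 fold change of 0.22, and leaving out aged replicate 3 gave -0.33 (adjusted p = 0.251).

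Markers of other cells were summed beside Cd38 and Nampt. The summed level of 7 B cell markers, which included Ms4a1 and Cd79a, was 772, 1104 and 1418 CPM in aged replicates 1 to 3, in the same order as Cd38, and 1218 to 1866 CPM in the young libraries. Among the young libraries the orders differed. Young replicate 4 was highest in both, but young replicate 1 had the next highest sum, 1527 CPM, and the lowest Cd38, 57.5 CPM. By edgeR's quasi-likelihood test 0 of the 7 B cell markers were called, 3 had an unadjusted p under 0.05, at most 2 were called under an alternative, and none was at 0. The summed level of 10 neutrophil markers was 4594, 1745 and 685 CPM in aged replicates 1 to 3 and 288 to 896 CPM in the young libraries, with 5 of the 10 called higher in aged libraries (9.8% over all genes tested), 0 called lower and none at 0. This count was 3 without aged replicate 1, 2 without young replicate 1 or young replicate 4, and 4 to 7 without any of the other 4 libraries. Nampt was highest in aged replicate 1, the library with most neutrophil transcripts, but was lowest in aged replicate 2, the library next in that order. It was also highest within each age in the library with the smallest haemoglobin share (aged replicate 1 and young replicate 2), and the aged library with the lowest Nampt had the largest share, 13.1%. Among the young libraries the largest share, 10.4%, was in replicate 1 with 65.3 CPM of Nampt, and the lowest Nampt, 62.4 CPM, was in replicate 4 with 5.91%. The sum of 8 plasma cell markers was 7551 to 12521 CPM in the aged and 3772 to 15570 CPM in the young libraries, with 1 of the 8 called higher. This count was 6 without young replicate 2 and 0 without aged replicate 3 or any of young replicates 1, 3 and 4. The part of these cells and of haemoglobin in the levels of Cd38 and Nampt was not tested.

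**Figure D2:**
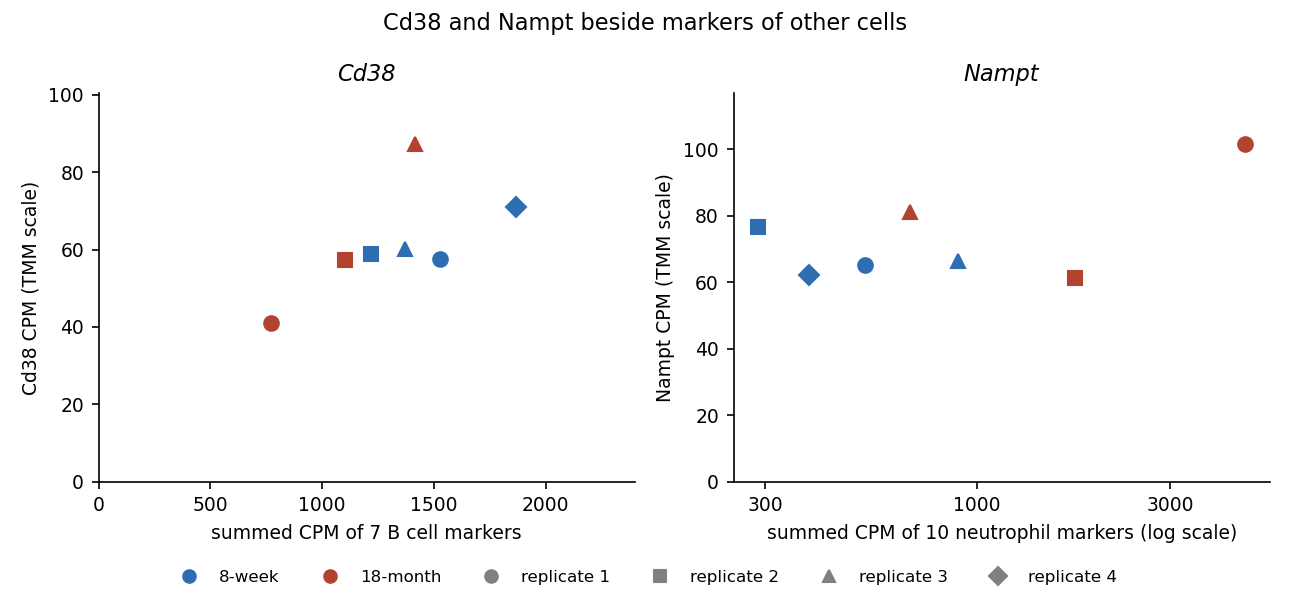
CPM of Cd38 against the summed CPM of 7 B cell markers (left) and of Nampt against that of 10 neutrophil markers (right, logarithmic horizontal axis), 1 point per library, with aged libraries in red and young ones in blue. Cd38 and the B cell sum are lowest together in aged replicate 1, and Nampt and the neutrophil sum are highest together in that library. Other libraries differ. Nampt is lowest in aged replicate 2, which has the next highest neutrophil sum. Cd38 is highest in aged replicate 3, whose B cell sum (1418 CPM) is below those of young replicates 1 (1527 CPM) and 4 (1866 CPM).

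**Figure D3:**
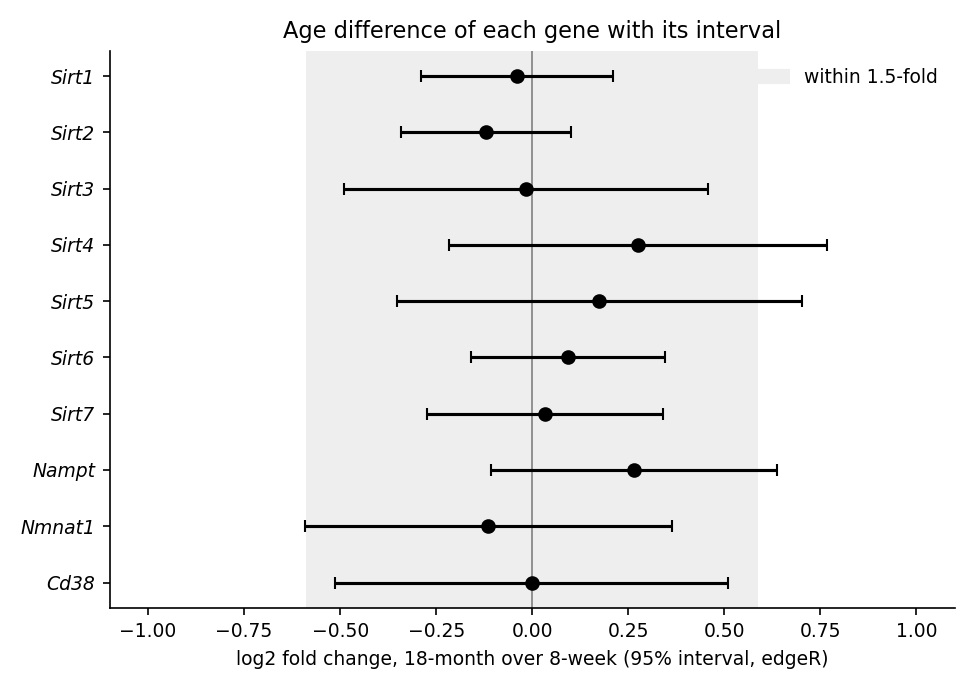
Log2 fold change of aged over young Tregs for each of the 10 genes (point) with its 95% interval from edgeR's quasi-likelihood fit (bar), and a grey band for changes within 1.5-fold. All 10 intervals hold 0, and those of Sirt4, Sirt5, Nampt and Nmnat1 reach out of the band.

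How large a difference the data could still hold varied between the genes. In edgeR's fit to all 7 libraries, all 10 intervals lay within 2-fold in either direction. Of them, 6 lay within 1.5-fold, those of Sirt1, Sirt2, Sirt3, Sirt6, Sirt7 and Cd38. For Sirt1 the bounds were 1.22-fold lower and 1.16-fold higher in aged Tregs, and for Sirt2 they were 1.27-fold lower and 1.07-fold higher. The upper bound was 1.7-fold for Sirt4, 1.63-fold for Sirt5 and 1.55-fold for Nampt, and the lower bound for Nmnat1 was 1.51-fold lower. Counting noise alone gave a coefficient of variation of 11.9% at the mean count of Sirt4, against 17.9% found between the aged libraries. For Sirt5 it gave 10.1% against 28.8%, for Nampt 3.36% against 24.8%, and for Cd38 3.66% against 37.9%. Between the young libraries the coefficient was 18.8% for Sirt4, 16.8% for Sirt5, 9.24% for Nampt and 10.1% for Cd38. For Nmnat1 counting noise gave 11.6%, against 25.5% between aged and 7.28% between young libraries. In the two-sided exact permutation test, which with 3 against 4 libraries cannot go below 0.0286, the smallest p of the 10 genes was 0.229, that of Sirt2.

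Per length, the 10 genes fell into tiers that were separate in young libraries, whereas the upper ones overlapped in aged libraries. Levels in RPKM (CPM on the TMM scale divided by the merged exon length in kilobases) put Sirt7 first in both ages, at 23.8 ± 4.65 RPKM (SD, n = 3) in aged and 23.3 ± 1.63 RPKM (SD, n = 4) in young Tregs. Its range was apart from that of the next gene in both ages, but in aged libraries the highest Cd38 value, 22.4 RPKM, exceeded the lowest of Sirt7, 21.1 RPKM. With coding exons as the length, Sirt7 and the next gene, Cd38, overlapped in aged but not in young libraries. Cd38 (15.9 RPKM in young Tregs), Sirt2 (14.8) and Nampt (13.4) came next, and neighbours in this tier overlapped in both ages. Sirt1 (7.37 RPKM in young Tregs) and Sirt6 (7.07) formed the third tier, apart from the tiers above and below it in both ages. Sirt4 (2.27), Nmnat1 (2.09), Sirt5 (1.26) and Sirt3 (1.12) were lowest. In this tier Sirt4 and Nmnat1 overlapped in young but not in aged libraries, Nmnat1 and Sirt5 overlapped in aged but not in young ones, and Sirt5 and Sirt3 overlapped in both. Over all genes tested, Sirt7 stood at the 85th percentile of mean RPKM and Sirt3 at the 19th. Taking coding exons as the length kept Sirt7, Cd38, Sirt2 and Nampt in the first 4 ranks of young Tregs and placed Sirt4 last in place of Sirt3. All neighbours among Sirt3, Sirt4, Sirt5 and Nmnat1 then overlapped in both ages, Sirt2 and Nampt no longer overlapped in young libraries, and Sirt6 and Sirt1 no longer overlapped in aged ones.

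**Figure D4:**
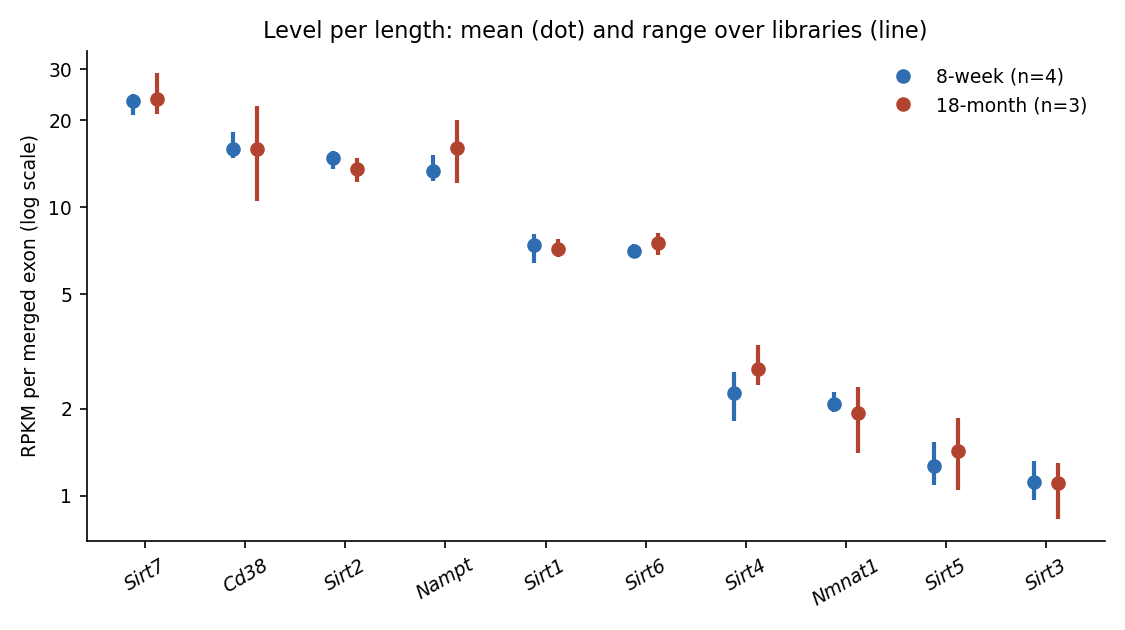
RPKM per merged exon length (logarithmic vertical axis) of the 10 genes, ordered by their young mean, with the mean as a dot and the range over libraries as a line, blue for the 4 young and red for the 3 aged libraries. The order runs from Sirt7 at 23.3 RPKM to Sirt3 at 1.12 RPKM in young Tregs, and each gene's aged range overlaps its young range.

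While the sirtuins, Nampt, Nmnat1 and Cd38 were not called, some other genes of the same pathways were. Of 12 tested genes of NAD salvage and of the Preiss-Handler route from nicotinic acid, 2 were called, both higher in aged Tregs (9.8% of all genes tested were called higher and 6.94% lower). In either direction this was 16.7% of the list, the same share as the 16.7% over all genes tested. Naprt, which starts the Preiss-Handler route, was at 10.9, 19.3 and 14.1 CPM in aged and at 5.24, 3.64, 4.03 and 6.67 CPM in young replicates. Every aged value exceeded every young one, and the log2 fold change was 1.59 (adjusted p = 0.00664, standard error 0.267). Slc12a8, reported as a carrier of nicotinamide mononucleotide, had a log2 fold change of 1.12 (adjusted p = 0.0315), but kept its call only without aged replicate 1 among the 7 fits that each left out a library (adjusted p up to 0.1003). The nicotinamide riboside kinase gene Nmrk1 had a log2 fold change of 0.57 (adjusted p = 0.0939) with no overlap between the ages, and Nadsyn1 and Nadk had -0.08 and 0.05. Nmrk2 and Nnmt were under the filter on low counts. Slc25a51, Nadk2 and Pnp were not called and varied widely within each age. Slc25a51 was at 76.7, 404 and 194 CPM in aged and at 360, 76.7, 208 and 275 CPM in young replicates. Within each age, each of these genes was lowest in the library with the smallest haemoglobin share and highest in that with the largest. The part of haemoglobin in their levels was not tested. The median log2 fold change of the 12 was 0.11, against 0.02 over all genes tested.

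Of 7 tested genes of NAD synthesis from tryptophan, Kmo, the kynurenine 3-monooxygenase gene, was the only one called, 14.3% against 16.7% over all genes tested. Young Tregs averaged 32.7 ± 5.73 CPM (SD, n = 4) and aged Tregs 16.1 ± 5.45 CPM (SD, n = 3). Its log2 fold change was -1.02 (adjusted p = 0.0223, standard error 0.236). The call was lost without aged replicate 2 (adjusted p = 0.0665), young replicate 1 (0.0595) or young replicate 4 (0.0601). Ido1, Ido2 and Tdo2, which open the route, were under the filter. In aged replicates 1 to 3, Kmo had 11.4, 14.7 and 22.1 CPM, in the order of Cd38 and the B cell markers. In young replicates 1 to 4 it had 34.3, 27.0, 29.4 and 39.9 CPM, in the order of the B cell sum (1527, 1218, 1370 and 1866 CPM) but not of Cd38. The 7 B cell markers had a median log2 fold change of -0.50, with 6 of them below 0. Of 8 dendritic cell markers, 3 were called lower and 1 higher, 50% against 16.7% over all genes tested, with a median log2 fold change of -0.88. Without aged replicate 3 the calls were 4 lower and 0 higher. With at least 10 counts in every library they were 1 lower and 1 higher, and with the replicate number as a block 0 were called. The sum of these markers was 119, 89.0 and 111 CPM in aged replicates 1 to 3 and 95.1 to 124 CPM in the young libraries. Of 10 monocyte or macrophage markers, 3 were called lower and 1 higher, 40% against 16.7% over all genes tested. Their median log2 fold change was -0.25, and their sums were 409 to 651 CPM in aged and 515 to 619 CPM in young libraries. No marker of either list was at 0, and the part of other cells in the fall of Kmo was not tested.

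The other consumers of NAD held 5 calls among 22 genes tested, 3 higher and 2 lower in aged Tregs. This share of 22.7% stood near the 16.7% called over all genes tested. Art3, which was listed for its place in the family of surface ADP-ribosyltransferases but whose protein is not known to consume NAD, had the largest change of the called pathway genes. Young Tregs averaged 1.29 ± 0.290 CPM (SD, n = 4) and aged Tregs 6.27 ± 0.625 CPM (SD, n = 3), and the log2 fold change was 2.28 (adjusted p = 0.00114, standard error 0.237). Parp1, the main poly(ADP-ribose) polymerase of DNA repair, was at 138, 114 and 127 CPM in aged and 194, 187, 178 and 205 CPM in young replicates. All aged values were below the young ones, and the log2 fold change was -0.60 (adjusted p = 0.00708, standard error 0.102). Tnks2, a tankyrase, fell by 0.49 on the log2 scale (adjusted p = 0.0131). Art3, Parp1 and Tnks2 were called in each of the 7 fits that left out a library. Sarm1, an NAD hydrolase known from axon degeneration, had a log2 fold change of 1.35 (adjusted p = 0.0282), with calls lost without aged replicate 2 or young replicates 2, 3 or 4 (adjusted p up to 0.0886). The interferon-inducible Parp12 had one of 1.13 (adjusted p = 0.0287), with calls lost without aged replicates 1 or 3 or young replicates 3 or 4 (up to 0.0711). Bst1, the paralogue of Cd38, had a log2 fold change of 0.38 and was not called (adjusted p = 0.423).

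Among the 11 zinc-dependent histone deacetylases, which do not use NAD, 2 were called lower and 0 higher, 18.2% against 16.7% over all genes tested. Hdac5, a class IIa enzyme, was at 33.2, 35.5 and 31.9 CPM in aged and at 55.9, 49.0, 51.8 and 58.3 CPM in young replicates, without overlap. The log2 fold change of Hdac5 was -0.68 (adjusted p = 0.00339, standard error 0.0974), and it was called whichever library was left out. Hdac8 had a log2 fold change of -0.48 (adjusted p = 0.0475), which was called in 0 of those 7 fits (adjusted p = 0.0528 to 0.119). Hdac1, a class I enzyme, had one of -0.23 (adjusted p = 0.103).

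Of 28 tested regulators and nuclear or cytosolic substrates of sirtuins, 7 were called, 1 higher and 6 lower in aged Tregs, where 9.8% of all genes tested were called higher and 6.94% lower. In either direction this was 25% of the list, against 16.7% over all genes tested. Foxo1, a transcription factor deacetylated by SIRT1 and SIRT2 and needed for Treg function, averaged 261 ± 25.1 CPM (SD, n = 4) in the young and 179 ± 11.6 CPM (SD, n = 3) in the aged libraries. Its log2 fold change was -0.55 (adjusted p = 0.0140, standard error 0.111). Of the 7 fits without a library, it was not called in the one lacking aged replicate 3 (0.0543). Acss2, the cytosolic acetyl-CoA synthetase activated by SIRT1, had a log2 fold change of -0.52 (adjusted p = 0.0116), called in all 7 of them. Xrcc6, which encodes Ku70, fell by 0.50 (adjusted p = 0.0294), with calls lost without aged replicates 2 or 3 or young replicate 4 (up to 0.0850). The circadian genes moved in opposite directions. Clock was at 55.2, 32.7 and 55.0 CPM in aged and 26.4 to 33.6 CPM in young libraries (log2 fold change 0.65, adjusted p = 0.0466), with aged replicate 2 inside the young range. Arntl, which encodes its partner BMAL1, was at 20.9 to 24.3 CPM in aged and 26.7 to 38.5 CPM in young libraries (log2 fold change -0.56, adjusted p = 0.0332). Clock kept its call only without aged replicate 2 among the 7 fits that left out a library, with adjusted p up to 0.156, and Arntl only without aged replicate 1 or young replicate 3, with adjusted p up to 0.0915. The hour of collection is not given in the sources used here, so that age and hour cannot be told apart for these 2 genes. The acetyltransferase gene Kat8 (log2 fold change -0.39, adjusted p = 0.0477) and the tubulin gene Tuba1a (-0.31, adjusted p = 0.0499) were each called in 1 of those 7 fits, without aged replicate 2 for Kat8 and without aged replicate 1 for Tuba1a, with adjusted p up to 0.150 and 0.152. Foxp3 itself (0.21, adjusted p = 0.409), Trp53 (-0.16, adjusted p = 0.335) and the SIRT1 inhibitor gene Ccar2 (0.06, adjusted p = 0.655) were not called.

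For the substrates of the mitochondrial sirtuins, 4 of 21 tested genes were called, all 4 lower in aged Tregs, where 6.94% of all genes tested were called lower. In either direction this was 19.0% of the list, near the 16.7% over all genes. The median log2 fold change of the 21 was -0.23, against 0.02 over all genes tested. Glud1, the glutamate dehydrogenase restrained by SIRT4, was at 160, 141 and 163 CPM in aged and at 222, 233, 206 and 214 CPM in young replicates, without overlap (log2 fold change -0.50, adjusted p = 0.0124, standard error 0.0975). Each of the 7 fits without a library called it. Pdha1, a pyruvate dehydrogenase subunit, fell by 0.72 (adjusted p = 0.0137), with no call when aged replicate 3 was dropped (0.0539) and calls in the other 6 fits. Hadha, of fatty acid oxidation, fell by 0.39 (adjusted p = 0.0259) and was called without aged replicate 1 or 2 but not without any of the other 5 libraries (adjusted p = 0.0506 to 0.0949). Idh2, an SIRT3 substrate, had a log2 fold change of -0.38 (adjusted p = 0.0432) and was called in 0 of those 7 fits (adjusted p = 0.0528 to 0.118). Sod2, the best known SIRT3 substrate, had one of 0.02 (adjusted p = 0.917). The share of mitochondrially encoded reads was higher in every aged library than in every young one, and its part in these values was not tested.

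**Figure D5:**
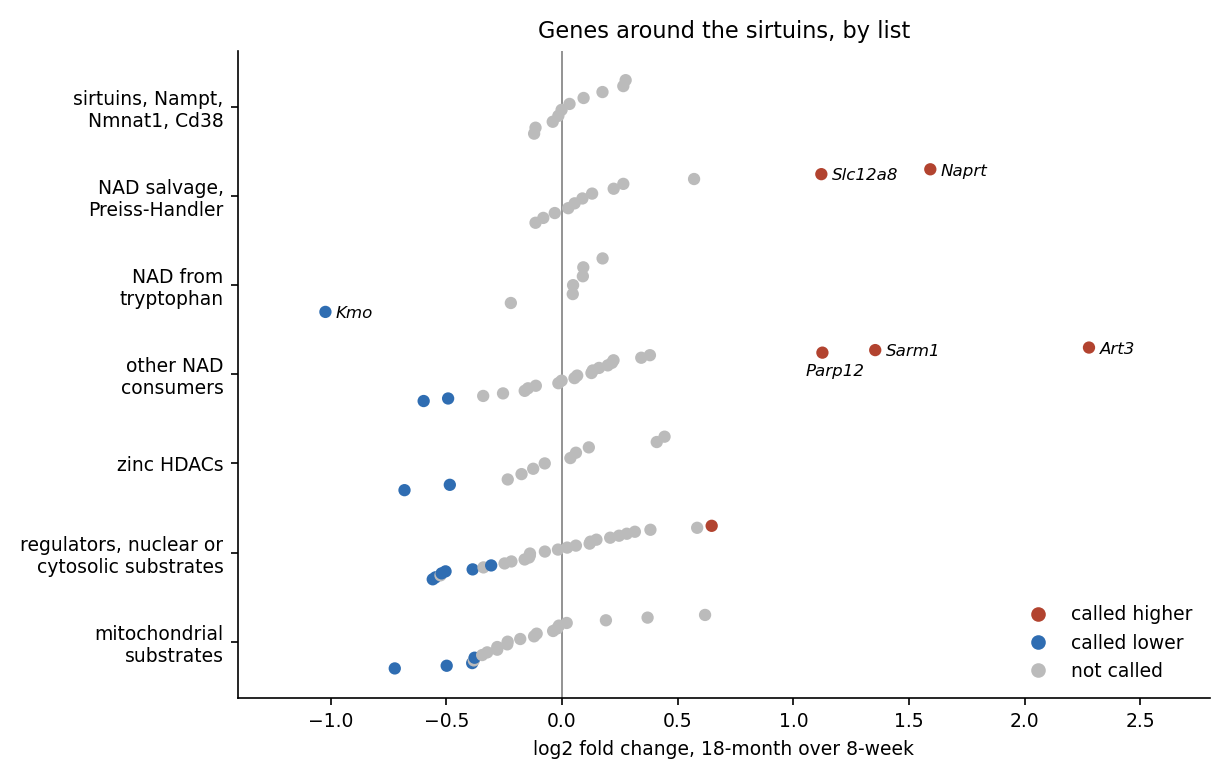
Log2 fold change of aged over young Tregs (horizontal axis) for each tested gene of the 7 lists, 1 point per gene, red where called higher, blue where called lower and grey where not called, with names for called genes beyond 0.9 in size. The row of the sirtuins, Nampt, Nmnat1 and Cd38 is all grey, within -0.12 and 0.28, whereas Art3 reaches 2.28. Nampt, Nmnat1 and Cd38 also appear in the rows of their pathways.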

How the data were processed

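RNA of CD4+CD25+ splenocytes was sequenced after cDNA synthesis with a SMART-Seq kit, 3 aged and 4 young libraries. The authors deposited raw read counts per Ensembl gene for each library, on mm10 per the labels, in the layout of HTSeq-count (union mode without strand, by file naming). The aligner and annotation are not given in the sources used here. Summary lines of unassigned reads (13.1% to 20.9%) were left out. A series table, used for gene symbols, holds signal values that the authors deposited after dividing each count by a constant per library, which was checked. Its columns of the authors' own comparison (fold changes and p-values) were not used. Symbols matched all listed genes but Kyat1, matched by Ensembl identifier, and Art2a, not analysed here. One B cell marker is not reported here and was left out of its list.

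The ages were tested by the quasi-likelihood method of edgeR 4.0.16 under R 4.3.3 (TMM scaling, filterByExpr by group, no covariate), with Benjamini-Hochberg adjustment over 13904 genes and a threshold of 0.05, where the study's methods name limma. Standard errors were obtained by dividing the log2 fold change by the square root of F, and 95% intervals use its degrees of freedom. CPM and RPKM are on the TMM scale, with lengths from GENCODE M21. Replicate pairs differed by more than sampling noise (chi-square per degree of freedom from 8.65), and the cDNA carries no molecular identifiers, so counting noise covers counting only. Alternatives were DESeq2 1.42.0, limma 3.58.1 (voom, and trend with prior count 2), RLE or library size scaling, mitochondrial, immunoglobulin and haemoglobin genes left out, no filter, at least 10 counts in every library, a replicate block, removal of GC content and length trends, and each library left out. The fit was tested on simulated data. Named genes are the 10 members and every called gene of 6 pathway lists, and genes most like a called member were to be named, of which there was none. Other listed genes were named after their values were seen. The members and lists were chosen with earlier results of these data known.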

Additional observations from a re-analysis of the deposited data

How the results depend on the processing

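Under each of the 17 alternatives, 0 of the 10 genes were called. With an unadjusted p, 1 gene passed 0.05 in 1 alternative, Nampt without aged replicate 2. Signs close to 0 turned with the setting. With the replicate block, the log2 fold change was 0.00768 for Sirt1, 0.0593 for Sirt3 and 0.00520 for Cd38. It was 0.0238 for Sirt3 with GC content and length trends removed, and -0.0498 for Sirt7 with library size only. For Cd38 it was 0.00149 with mitochondrial, immunoglobulin and haemoglobin genes left out, and 0.0125 with at least 10 counts in every library. When 1 library was left out, it ran from -0.10 to 0.00663 for Sirt1, from -0.15 to 0.15 for Sirt3, from -0.0607 to 0.35 for Sirt5, from -0.14 to 0.11 for Sirt7, from -0.29 to 0.0673 for Nmnat1 and from -0.33 to 0.22 for Cd38. Sirt2, Sirt4, Sirt6 and Nampt kept their sign in all 17. Over all genes tested, 2327 were called, 1362 higher and 965 lower, against 292, 202 and 90 with the replicate block. Same-numbered libraries did not deviate together (correlation across genes of -0.09, -0.29 and -0.14), and the labels give the number no meaning beyond naming a replicate. With 1 library left out, 1237 (without young replicate 4) to 3058 (without aged replicate 1) genes were called, 783 to 1603 higher and 448 to 1455 lower. The block left 1 call in the 6 pathway lists, that of Art3. The mitochondrial substrates had 7 calls with GC content and length trends removed, and 1 without aged replicate 3. The regulators and nuclear or cytosolic substrates also had 1 without aged replicate 3. The cause of these shifts was not tested. Counting noise at the mean count was largest for Sirt3, Sirt4, Sirt5 and Nmnat1, at 10.1% to 11.9%.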
